A study of Mus musculus with 14 samples.

Results

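The genes described here encode ligands and receptors of the EGF receptor system and were chosen by symbol, with earlier results of these data known. They are the ligand genes Hbegf, Areg, Ereg, Tgfa, Btc, Epgn and Nrg1, the receptor genes Egfr and Erbb2, and the inhibitor gene Errfi1. These 10 genes were found among the 43472 genes listed in both tables of normalised read counts, and all 10 had a mean of at least 10 normalised counts in each table. The cells were primary fibroblasts from the tail tip of C57BL/6 mice, grown in medium with serum and wounded by a scratch, and mouse age was not given. The AMG-treated cultures received autologous micrograft (AMG), a cell-depleted skin extract prepared from minced biopsies and diluted in medium, whereas the Untreated cultures were wounded without it. One pair of libraries (replicate 1) was sequenced at each of 1, 5, 12 and 24 h, and 3 further pairs (replicates 2, 3 and 4) were sequenced at 5 h, which gave 14 libraries.

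EGF receptor ligands are made as membrane-anchored precursors, and metalloproteases of the ADAM family cut them from the cell surface. The released ligand binds EGFR on the same or a neighbouring cell, the receptor pairs with a second receptor of the family, often ERBB2, and signalling passes through RAS to the kinase ERK. In skin this system is known for driving keratinocyte and fibroblast migration and proliferation after wounding. Several ligand genes and negative regulators are themselves transcribed in response to the signal, so that the pathway carries feedback loops in both directions.

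Library depth ranged from 12545537 to 34696529 reads counted on genes, and the tables were normalised separately, so that levels were compared only within a table. All 10 fibroblast markers (such as Col1a1, Pdgfra and Vim) were above 0 in every library, with a summed level of 447915 to 626083 normalised counts in the Untreated and 350893 to 453679 in the AMG-treated libraries of replicates 2 to 4. Of 16 keratinocyte markers, 9 to 10 were above 0 in each of these Untreated libraries, with a summed level of 235 to 519. In each AMG-treated one 8 were above 0 (summed level 253 to 909). Krt5, Krt14 and Krt1 were among those at 0 in all 6. Others were read in every one, such as Krt10 (15.3 to 52.2 normalised counts), Dsp (61.5 to 240) and Sfn (52.9 to 645). Leukocyte markers summed to 245 to 1464 in the Untreated and 514 to 1799 in the AMG-treated libraries, endothelial markers to 15.7 to 238 and 7.63 to 115, and Schwann cell markers to 111 to 241 and 109 to 257. The part of these cells in the results was not tested, and in bulk RNA fewer cells of a type and less RNA per cell cannot be told apart. In replicate 1, ribosomal protein genes took 7.04% of reads in the Untreated 5 h library and 5.13% in the AMG-treated 1 h library, against 2.29% to 3.50% in the other 12 libraries.

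The comparison at 5 h asked which genes responded to AMG in wounded fibroblasts. Upon AMG treatment, Ereg and Errfi1 rose beyond the spread between replicates 2 to 4, and no member fell. Of the 10 members, 2 passed in the higher direction, against 0.97% of the 13096 genes tested, and 0 of 10 passed in the lower direction, against 0.267% (limma on log2 of the normalised count plus 1, Benjamini-Hochberg adjusted p under 0.05). Without adjustment, 5 of the 10 members had a limma p under 0.05, as did 3021 of the 13096 genes tested. The same-numbered Untreated and AMG-treated libraries deviated together from their group means, and with the replicate number as a block 7 of the 10 members rose, against 17.9% of all genes. The 7 were Hbegf, Areg, Ereg, Btc, Epgn, Nrg1 and Errfi1. For Areg, Ereg, Epgn and Errfi1 every AMG-treated value lay above every Untreated one, which is 4 of 10 members against 15.1% of all genes, and the reverse held for 0 members against 13.6%. The median log2 fold change of the members was 1.11 and that of all genes tested was -0.02.

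**Figure D1:**
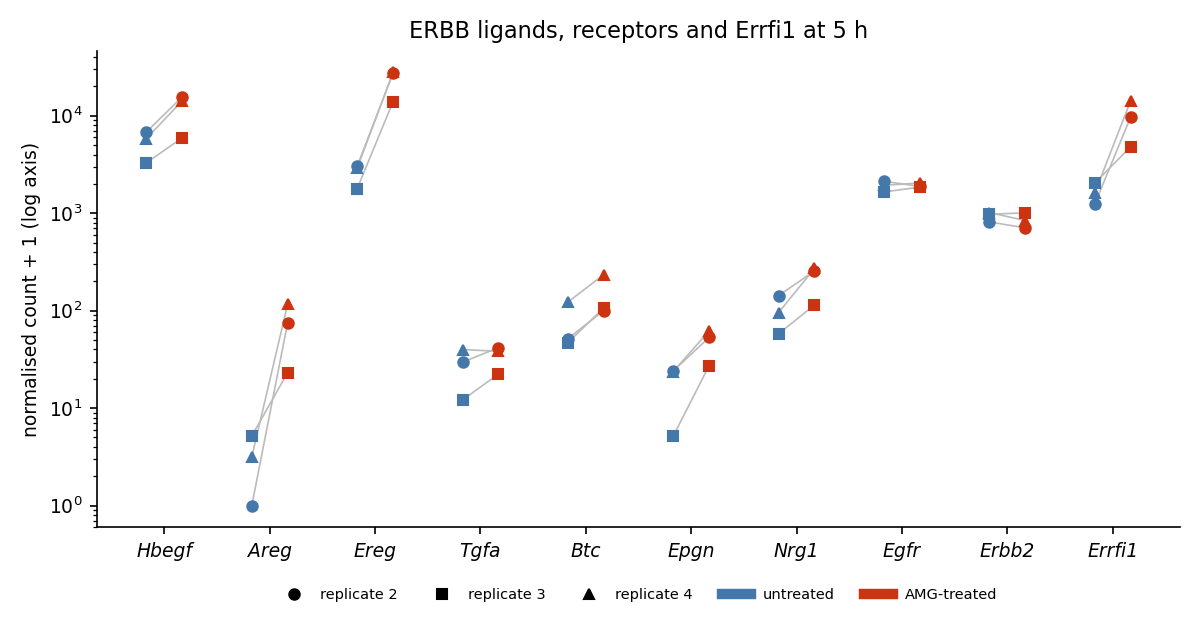
Normalised read counts plus 1 (log axis) of the 10 members in the 3 Untreated and 3 AMG-treated libraries at 5 h, with marker shape giving the replicate and grey lines joining the libraries of the same number. Areg, Ereg, Epgn and Errfi1 show AMG-treated values that all lie above the Untreated values, whereas Egfr and Erbb2 overlap.

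Ereg encodes epiregulin, a ligand of EGFR and ERBB4. It was read at 3029, 1784 and 2886 normalised counts in Untreated replicates 2, 3 and 4 and at 27119, 13863 and 27823 in the AMG-treated ones. The lowest treated library was replicate 3, and it still lay far above every Untreated library. The group means were 2566 ± 682 and 22935 ± 7864 (SD, n = 3 each), and the log2 fold change was 3.13 (SE 0.33, limma adjusted p = 0.0190). Only 74 of the genes tested had a larger log2 fold change. Exons of Ereg (chr5:91074622-91093646, plus strand, GRCm38/mm10) overlap those of the antisense gene Gm19610, and because the strand setting of the counting was not given, their reads cannot be told apart.

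Hbegf encodes heparin-binding EGF-like growth factor, which binds EGFR and ERBB4 and is held near the cell by heparan sulphate. It was at 6820, 3289 and 5833 normalised counts in the Untreated and at 15625, 5937 and 14237 in the AMG-treated libraries. AMG-treated replicate 3 fell inside the Untreated range, so the groups overlapped, but each treated library exceeded the Untreated library of its own number. The log2 fold change was 1.11 (SE 0.43, limma adjusted p = 0.189), and with the replicate block it passed at an adjusted p of 0.000120 (SE 0.10).

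Areg encodes amphiregulin, an EGFR ligand. It was almost unread without AMG, at 0, 4.18 and 2.16 normalised counts (0, 3 and 4 reads), and was at 73.8, 22.1 and 115 normalised counts in the AMG-treated libraries. The groups did not overlap, and replicate 3 again gave the lowest treated value. Summed over the libraries, 187 reads stood against 7, a depth-scaled ratio of 32.1 with a 95% exact binomial interval of 15.3 to 81.0 that covers counting error only. The log2 fold change was the largest of the members, 4.53 (SE 0.87), and missed the threshold (limma adjusted p = 0.0628), whereas it passed with the replicate block (adjusted p = 0.00189). At so few Untreated reads the value depended on the pseudocount, at 5.86 with 0.1 and 2.54 with 10 in place of 1.

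Areg, Ereg, Epgn and Btc lie in one stretch of 375.5 kb on chromosome 5 (chr5:91027464-91402994), with Btc on the minus strand and the others on the plus strand. Epgn encodes epigen, a low-affinity EGFR ligand, and was at 23.1, 4.18 and 22.7 normalised counts in the Untreated and 52.2, 26.2 and 61.0 in the AMG-treated libraries, without overlap. Its log2 fold change was 1.64 (SE 0.70, limma adjusted p = 0.222, with the block 0.00885), and the lowest Untreated value rested on 3 reads. Btc encodes betacellulin, which binds EGFR and ERBB4, and was at 50.6, 45.9 and 122 normalised counts in the Untreated and 99.2, 106 and 233 in the AMG-treated libraries. Here Untreated replicate 4 lay above 2 treated libraries, and the log2 fold change of 1.02 (SE 0.49) passed with the block only (limma adjusted p = 0.260 and 0.00470).

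Nrg1 encodes neuregulin 1, a ligand of ERBB3 and ERBB4. It was at 142, 57.1 and 94.7 normalised counts in the Untreated and 254, 113 and 270 in the AMG-treated libraries. AMG-treated replicate 3 lay below Untreated replicate 2, and the log2 fold change of 1.10 (SE 0.45) passed with the block only (limma adjusted p = 0.209 and 0.00307). Tgfa encodes transforming growth factor alpha, an EGFR ligand, and was at 28.6, 11.1 and 38.9 normalised counts in the Untreated and 40.7, 21.3 and 37.3 in the AMG-treated libraries. The groups overlapped, and the log2 fold change of 0.44 had a 95% interval of -0.85 to 1.73 (limma adjusted p = 0.660, with the block 0.335). Tgfa had 8 to 72 reads per library. A change of the size seen for Hbegf was inside this interval and could not be resolved.

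For the receptor genes, the intervals of the difference included 0. Egfr, which encodes the receptor of most of these ligands, was at 2125, 1651 and 1929 normalised counts in the Untreated and 1882, 1851 and 2042 in the AMG-treated libraries. Erbb2, which encodes the partner receptor with no known soluble ligand of its own, was at 812, 975 and 1015 and at 707, 1008 and 839. Both pairs of groups overlapped. The log2 fold change of Egfr was 0.02 with a 95% interval of -0.29 to 0.34 (limma adjusted p = 0.934), and that of Erbb2 was -0.14 with an interval of -0.55 to 0.27 (limma adjusted p = 0.651). Neither passed with the block (adjusted p = 0.873 and 0.324). With the trend of values on gene length also removed from each library, Egfr passed with the block (log2 fold change 0.29, limma adjusted p = 0.0354). Exons of Erbb2 overlap those of Mien1 on the opposite strand, and Tgfa and Nrg1 overlap exons of the opposite-strand genes Gm43917 and Gm26578, so that the same limit on strand holds for them.

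The remaining receptors and ligands of the family were nearly unread. Erbb4 had 0 reads in all 14 libraries, which allows up to 3 reads in each. Erbb3, the other neuregulin receptor, had at most 8 reads in any library. Egf, the ligand that names the family, had 1 to 34 reads and did not pass at 5 h (log2 fold change -0.10, SE 0.63, limma adjusted p = 0.946). The other neuregulin genes Nrg2, Nrg3 and Nrg4 had at most 11, 1 and 1 reads.

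Errfi1 encodes MIG6, a cytoplasmic protein that binds the EGFR kinase domain and blocks its activity. It was at 1239, 2032 and 1602 normalised counts in the Untreated and 9619, 4790 and 14137 in the AMG-treated libraries, with every treated library above every Untreated one. The group means were 1624 ± 397 and 9515 ± 4674 (SD, n = 3 each), and the log2 fold change was 2.44 (SE 0.39, limma adjusted p = 0.0438).

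With the replicate block and no library left out, Ereg and Errfi1 passed (limma adjusted p = 1.83e-07 and 0.000472). Leaving out 1 library at a time, in fits without the block, kept their direction but ended most of their calls. Ereg gave log2 fold changes of 2.89 to 3.46 and still passed without Untreated replicate 3 (adjusted p = 0.0397) or AMG-treated replicate 3 (0.00351), and not without Untreated replicates 2 (0.0929) or 4 (0.0866) or AMG-treated replicates 2 (0.123) or 4 (0.108). Errfi1 gave 2.09 to 2.87 and passed only without AMG-treated replicate 3 (0.00566). Its adjusted p was 0.192, 0.0676 and 0.183 without Untreated replicates 2, 3 and 4, and 0.203 and 0.150 without AMG-treated replicates 2 and 4. Over 19 alternatives in all, Ereg passed in 15 (adjusted p 3.23e-18 to 0.123) and Errfi1 in 13 (1.32e-08 to 0.203). AMG-treated replicate 3 was the lowest of the treated libraries for 8 of the 10 members, Untreated replicate 3 was the lowest Untreated one for 7, and AMG-treated replicate 4 was the highest treated one for 7.

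The promoters of Areg and Errfi1 are shown because both held the same pair of short motifs close to the start. The sequences are the 250 bases before the RefSeq transcription start (GRCm38.p6, 5′ to 3′ on the plus strand, Areg chr5:91139349-91139598 and the second of the Errfi1 starts chr4:150854820-150855069), with TGACGTCA and TATAAA in capitals.
Areg: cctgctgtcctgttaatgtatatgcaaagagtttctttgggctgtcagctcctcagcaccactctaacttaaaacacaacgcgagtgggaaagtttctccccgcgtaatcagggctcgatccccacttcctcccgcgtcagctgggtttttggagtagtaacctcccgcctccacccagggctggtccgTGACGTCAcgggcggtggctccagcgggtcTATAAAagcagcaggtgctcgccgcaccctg
Errfi1: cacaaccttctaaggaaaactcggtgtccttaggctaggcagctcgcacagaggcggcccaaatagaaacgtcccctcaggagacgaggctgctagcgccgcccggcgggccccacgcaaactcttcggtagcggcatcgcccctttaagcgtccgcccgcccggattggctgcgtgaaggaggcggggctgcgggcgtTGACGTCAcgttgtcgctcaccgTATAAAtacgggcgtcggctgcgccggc
The motif TGACGTCA, the full cAMP response element, began 61 bases before the start of Areg and 51 bases before that of Errfi1, and TATAAA, the TATA box, began at 31 and 28 bases. RefSeq gave 8 promoters for 7 members, Ereg, Hbegf and Nrg1 were not searched, and both motifs together occurred in these 2 of the 8. Searched on both strands, TGACGTCA was in 1.55%, TATAAA in 12.4% and both in 0.119% of 32851 mouse promoters of the same length, and the matches shown do not overlap each other. Epgn held TATAAA alone, 86 bases before its start. The AP-1 motif TGANTCA was in none of the 8 promoters and in 6.75% of all promoters. These matches describe the letters only, and binding was not measured.

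Adding replicate 1 gave 4 pairs at 5 h, and the direction held in each of them for the same 7 members that passed with the block, against 15.7% of all genes that were higher in all 4 pairs, and no member was lower in all 4 (15.9% of all genes). The log2 ratios of Ereg for replicates 1 to 4 were 4.23, 3.16, 2.96 and 3.27. Those of Hbegf were 0.89, 1.20, 0.85 and 1.29, and those of Errfi1 were 2.00, 2.96, 1.24 and 3.14. Ereg and Hbegf were thus alike among replicates 2 to 4, while Errfi1 was lowest in replicate 3. Areg varied most among the ligands, at 4.06, 6.22, 2.16 and 5.20, with few reads behind each Untreated value. Epgn was at 2.21, 1.14, 2.40 and 1.39, Btc at 1.33, 0.96, 1.19 and 0.93, and Nrg1 at 3.15, 0.84, 0.97 and 1.50. Tgfa was higher in 3 of 4 pairs (0.06, 0.49, 0.88 and -0.06).
Replicate 1 gave the highest of the 4 ratios for Ereg, Btc, Nrg1 and both receptors. Egfr was at 1.91 in replicate 1 and at -0.18, 0.16 and 0.08 in replicates 2 to 4, and Erbb2 was at 0.48 and at -0.20, 0.05 and -0.27. The Untreated 5 h library of this pair is the one with 7.04% of reads on ribosomal protein genes. Its part in the replicate 1 ratios of the receptors and of the other members was not tested. With the trend of values on gene length removed from each library, the Egfr ratio of replicate 1 was 1.39.

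**Figure D2:**
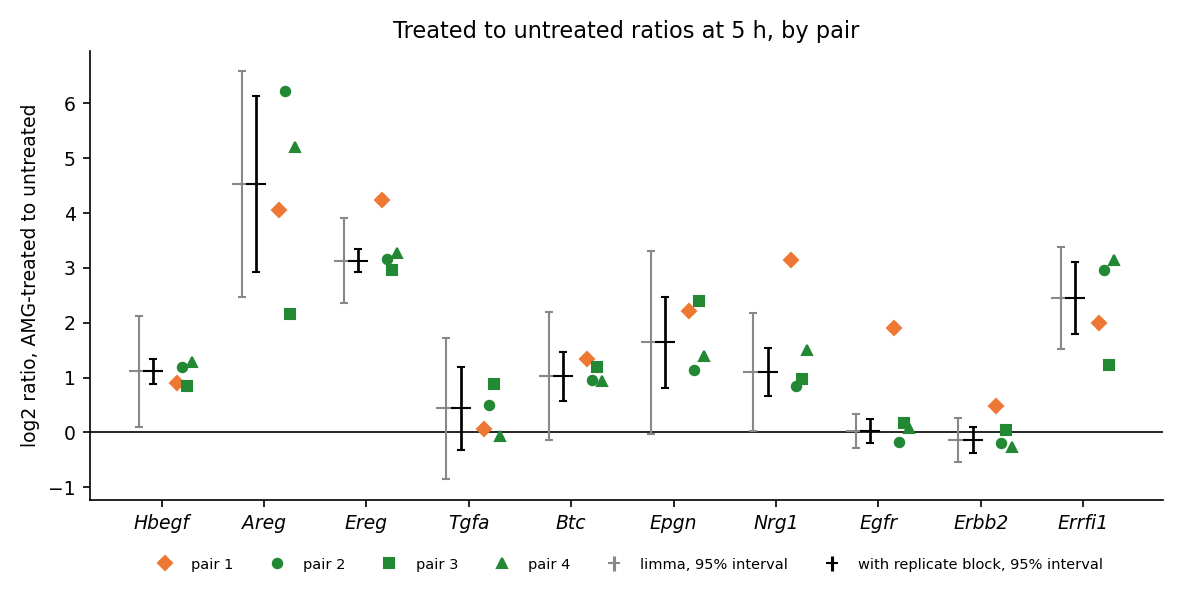
Log2 ratio of AMG-treated to Untreated at 5 h for each member and each of the 4 replicate pairs (normalised count plus 1), beside the limma log2 fold change of replicates 2 to 4 with its 95% interval, in grey without and in black with the replicate block. Ereg lies at 2.96 to 4.23 in every pair, and Egfr lies near 0 in replicates 2 to 4 but at 1.91 in replicate 1.

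Divided by exon length, the levels of different members can be set beside each other. In the Untreated libraries of replicates 2 to 4, the order in normalised counts per kb was Hbegf (1099 ± 377), Ereg (622 ± 165), Errfi1 (453 ± 111), Erbb2 (179 ± 20.7), Egfr (168 ± 21.0), Btc (16.1 ± 9.39), Nrg1 (9.46 ± 4.11), Epgn (9.22 ± 5.99), Tgfa (4.04 ± 2.17) and Areg (1.74 ± 1.72), each as mean ± SD with n = 3. Errfi1 and Erbb2, and Egfr and Btc, were the neighbours whose library values did not overlap. Under AMG the order per kb was Ereg (5556 ± 1905), Errfi1 (2656 ± 1305), Hbegf (2469 ± 1084), Egfr (170 ± 9.06), Erbb2 (163 ± 28.9), Areg (57.9 ± 38.4), Btc (32.3 ± 16.6), Epgn (25.7 ± 10.00), Nrg1 (20.5 ± 8.35) and Tgfa (5.10 ± 1.59). Here the gaps without overlap were those between Hbegf and Egfr, Erbb2 and Areg, and Nrg1 and Tgfa.

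The leading ligand transcript per kb was Hbegf in the Untreated and Ereg in the AMG-treated libraries. Hbegf made up 62.0% ± 2.34 of the summed ligand level per kb in the Untreated libraries and 29.5% ± 3.07 in the AMG-treated ones, while Ereg went from 35.7% ± 2.25 to 68.8% ± 3.08 (SD, n = 3 each). The ratio of Ereg to Hbegf per kb was 0.578 ± 0.0575 and 2.35 ± 0.355, a log2 difference of 2.02. The groups did not overlap, and the exact two-sided permutation test gave p = 0.1, the smallest that 3 against 3 allows. Over both tables, the ratio was below 1 in all 7 Untreated libraries (0.148 to 0.646) and above 1 in all 7 AMG-treated libraries (1.27 to 4.32). The summed ligand level per kb was 1761 ± 554 and 8166 ± 3039 (exact permutation p = 0.1). In replicates 2 to 4, the ratio of Errfi1 to Egfr per kb was 2.79 ± 1.03 and 15.4 ± 6.88 (p = 0.1 by the same exact permutation test). That of Egfr to Erbb2 was 0.953 ± 0.223 and 1.06 ± 0.195 with overlapping groups (exact permutation p = 0.6). The replicate 1 pair at 5 h differed from this. Its ratio of Errfi1 to Egfr was 18.9 without and 20.1 with AMG, and that of Egfr to Erbb2 was 0.341 and 0.920.

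**Figure D3:**
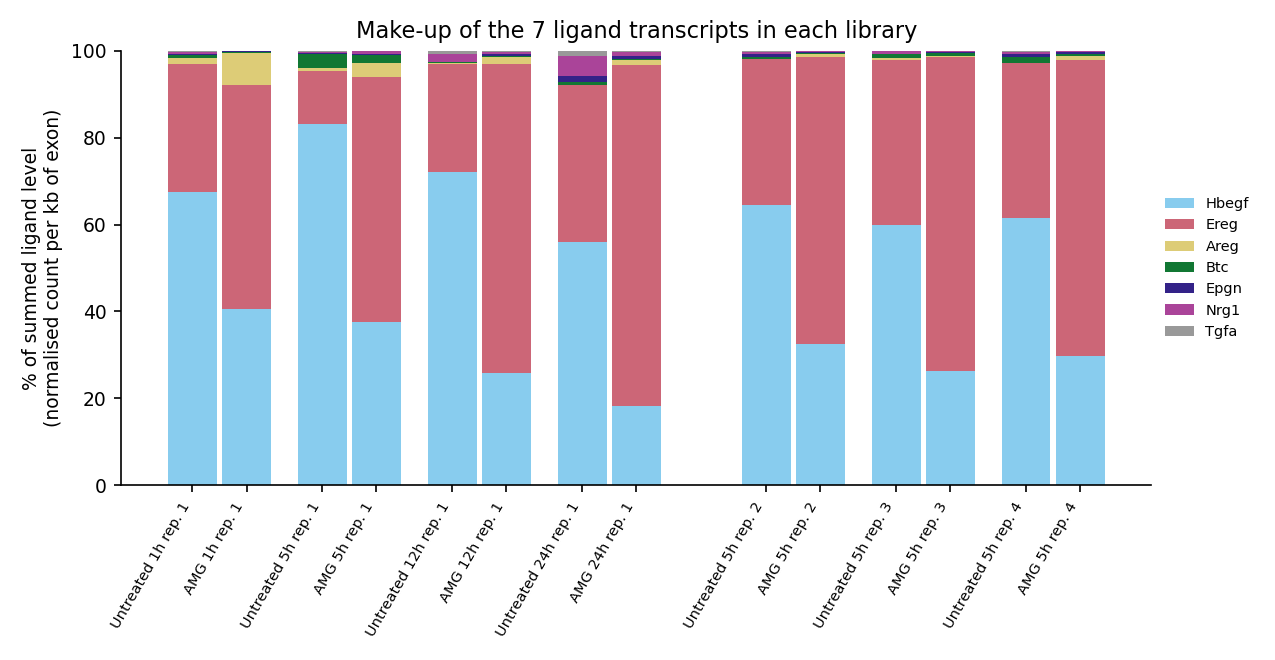
Share of each of the 7 ligand genes in the summed ligand level per kb (percent) in each of the 14 libraries. Hbegf exceeds Ereg in all 7 Untreated libraries and Ereg exceeds Hbegf in all 7 AMG-treated libraries.

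The time course of replicate 1 followed the members from 1 to 24 h, with 1 library per group and time and no test. At 1 h, 5 members were more than 2-fold higher with AMG and 1 was more than 2-fold lower, against 11.3% and 10.7% of the 13498 genes compared. The counts at 5 h were 7 and 0 (13.3% and 12.6% of genes). After 12 h they were 5 and 0 (5.93% and 6.90%), and after 24 h they were 2 and 1 (6.05% and 8.05%). Areg and Ereg were above 2-fold at all 4 times, as were 0.956% of genes.

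Ereg in the Untreated libraries was at 4404, 729, 1033 and 1051 normalised counts at 1, 5, 12 and 24 h, and with AMG at 29395, 13725, 11714 and 7084. It was highest at 1 h in both arms, and the log2 ratio was 2.74, 4.23, 3.50 and 2.75. Areg was at 62.4, 13.1, 3.66 and 0 normalised counts without AMG and at 1228, 234, 78.1 and 29.7 with it. The treated level at 1 h was 41.3-fold that at 24 h, and the log2 ratio was 4.28, 4.06 and 4.09 at 1, 5 and 12 h. With the trend on gene length removed, these ratios were 3.44, 4.84 and 4.23. At 24 h, 33 reads with AMG stood against 0 without, at least 12.9-fold higher when 3 reads are taken as the Untreated floor.

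Hbegf and Errfi1 were also highest at 1 h in both arms. Hbegf was at 11814, 5786, 3535 and 1905 normalised counts without AMG and at 27176, 10746, 5015 and 1921 with it, so that the 2 libraries at 24 h were alike. Its log2 ratio was 1.20, 0.89, 0.50 and 0.01 in the order of time, and the 95% exact binomial interval of the last was -0.07 to 0.10. Errfi1 was at 13916, 2493, 1925 and 3343 normalised counts without and 37791, 9946, 5195 and 5743 with AMG, and its log2 ratio was 1.44, 2.00, 1.43 and 0.78. In the Untreated arm, the level at 1 h was 6.20-fold that at 24 h for Hbegf and 4.16-fold for Errfi1.

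**Figure D4:**
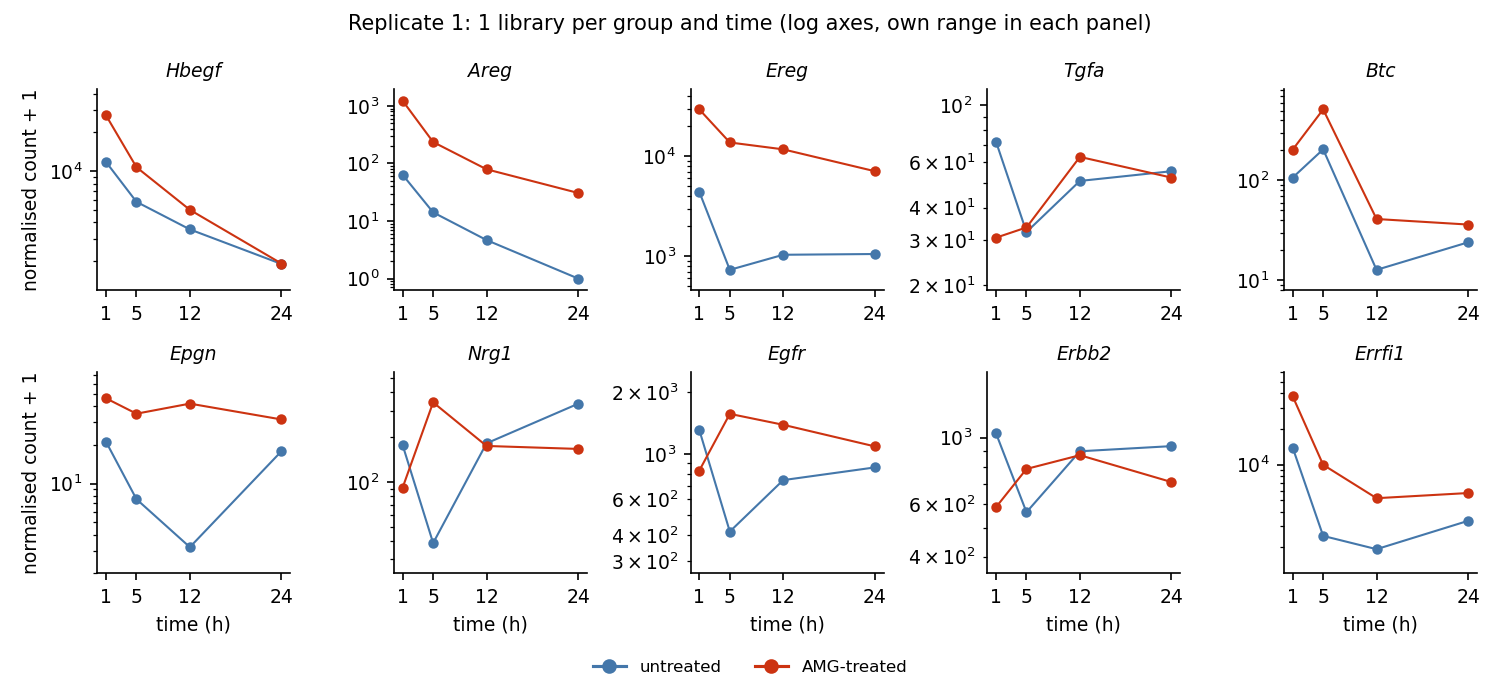
Normalised counts plus 1 (log axes, each panel with its own range) of the members in the Untreated and AMG-treated libraries of replicate 1 at 1, 5, 12 and 24 h, 1 library per point. Ereg and Areg stay above the Untreated course at every time, Hbegf meets it at 24 h, and Nrg1 lies below it at 1 and 24 h.

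Btc had another course, with its highest level at 5 h in both arms. It was at 105, 203, 11.7 and 23.0 normalised counts without AMG and at 202, 512, 40.0 and 35.1 with it, and its log2 ratio was 0.93, 1.33, 1.69 and 0.59 (interval at 24 h -0.11 to 1.35). Epgn was at 20.2, 6.56, 2.20 and 16.8 normalised counts without and 45.2, 34.0, 41.0 and 30.6 with AMG. Its treated level varied only 1.48-fold over the course, and the ratio at 12 h, 43 reads against 3, was 18.7-fold with an interval of 5.97 to 94.1. Tgfa was at 71.2, 31.1, 49.8 and 54.4 normalised counts without and 29.6, 32.5, 61.9 and 51.3 with AMG. It was the member more than 2-fold lower at 1 h, with a log2 ratio of -1.24 (interval -2.12 to -0.50). With the trend on gene length removed, the ratio of Tgfa at 1 h was -0.98, short of 2-fold.

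Nrg1 and the receptors crossed between times. Nrg1 was at 176, 37.7, 181 and 335 normalised counts without AMG and at 90.4, 342, 173 and 166 with it. With AMG it was lower at 1 h (log2 ratio -0.95, interval -1.43 to -0.51) and higher at 5 h (3.15). The ratio was -0.06 at 12 h and again negative at 24 h (-1.01, interval -1.27 to -0.76). Egfr was at 1308, 416, 744 and 858 normalised counts without and 828, 1568, 1387 and 1087 with AMG, a log2 ratio of -0.66, 1.91, 0.90 and 0.34. Erbb2 was at 1033, 562, 899 and 935 without and 584, 784, 872 and 709 with AMG, a log2 ratio of -0.82, 0.48, -0.04 and -0.40. All 3, and Tgfa as well, were lowest at 5 h in the Untreated arm and lowest at 1 h in the AMG arm. The 2 libraries with the high ribosomal protein shares are of these times and arms. With the length trend removed the log2 ratios at 1 h were -0.57 for Nrg1, -0.25 for Egfr and -0.62 for Erbb2, and the ratio of Nrg1 at 24 h was -0.88.

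Beyond the members, 54 genes that act before or after the receptors were listed, of which 48 were tested at 5 h. They were chosen with earlier results of these data known, so their counts are descriptions. In this group 7 rose and 0 fell (limma adjusted p under 0.05, against 0.97% and 0.267% of all genes), and 18 had a p under 0.05 before adjustment. In the blocked fit 15 rose and 9 fell, against 17.9% and 19.3% of all genes. The median log2 fold change was 0.11 beside -0.02 for all genes.

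The 7 that rose sat at the shedding step, in receptor turnover and among ERK targets. Of 8 genes of ligand shedding, Rhbdf2 rose from 217 ± 40.7 to 888 ± 56.5 normalised counts (log2 fold change 2.04, SE 0.18, limma adjusted p = 0.0167). It encodes iRhom2, which carries the sheddase ADAM17 to the cell surface. Adam17 itself was at 1086 ± 195 and 909 ± 163 normalised counts and did not pass (-0.26, limma adjusted p = 0.438). The sheddase genes Adam10, at 2544 ± 98.8 and 1742 ± 348 (-0.56, limma adjusted p = 0.117), and Adam9, at 7008 ± 187 and 4929 ± 869 (-0.52, limma adjusted p = 0.120), had every treated value below every Untreated one. With the replicate block both fell (adjusted p = 0.00634 and 0.00536). In that fit 1 gene of this list rose and 2 fell, against 17.9% and 19.3% of all genes. Of 13 tested adaptor and down-regulation genes, Lrig1 rose from 885 ± 288 to 4071 ± 1547 (2.19, SE 0.34, adjusted p = 0.0414). It encodes a membrane protein that lowers the level of EGF receptor family proteins. With the block 2 genes of this list rose and 3 fell, against 17.9% and 19.3% of all genes. Those that rose were Lrig1 and Grb2 (0.36, limma adjusted p = 0.160, with the block 0.0143). The 3 that fell were Lrig3 (-1.42, limma adjusted p = 0.116, with the block 0.000219), Cbl (-1.32, 0.172 and 0.00359) and Gab1 (-0.61, 0.241 and 0.0282). For Lrig3 and Gab1 every treated value lay below every Untreated one, whereas the groups overlapped for Cbl.
None of 10 genes of the chain from RAS to ERK passed, and with the block 2 rose and 2 fell, against 17.9% and 19.3% of all genes. The largest differences there were Braf, at 748 ± 24.0 and 467 ± 43.1 (-0.68, SE 0.13, adjusted p = 0.0630, with the block 0.00206), and Hras, at 1811 ± 248 and 2421 ± 433 (0.41, SE 0.18, adjusted p = 0.226, with the block 0.00740).

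Of 16 ERK feedback and target genes, also chosen with earlier results known, 5 rose and none fell (0.97% and 0.267% of all genes). The median log2 fold change of the list was 0.78. With the replicate block 10 rose and 2 fell (17.9% and 19.3% of all genes). The 2 were Spry1, which encodes a Sprouty inhibitor of receptor kinase signalling (log2 fold change -1.04, limma adjusted p = 0.452, with the block 0.0172), and Etv5, which encodes an ETS factor (-0.40, limma adjusted p = 0.202, with the block 0.0431). Ier3, an immediate early gene, rose from 1469 ± 466 to 16778 ± 9512 normalised counts (3.32, SE 0.54, limma adjusted p = 0.0438). Dusp5, the nuclear ERK phosphatase, rose from 457 ± 85.3 to 2106 ± 824 (2.13, adjusted p = 0.0414), and Phlda1 from 1272 ± 117 to 4279 ± 1415 (1.69, adjusted p = 0.0414). Fosl1, which encodes the AP-1 subunit FRA-1, rose from 1123 ± 57.5 to 2914 ± 419 (1.37, adjusted p = 0.0190), and Myc from 1265 ± 57.3 to 2176 ± 151 (0.78, adjusted p = 0.0375). All values are mean ± SD with n = 3 per group.

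**Figure D5:**
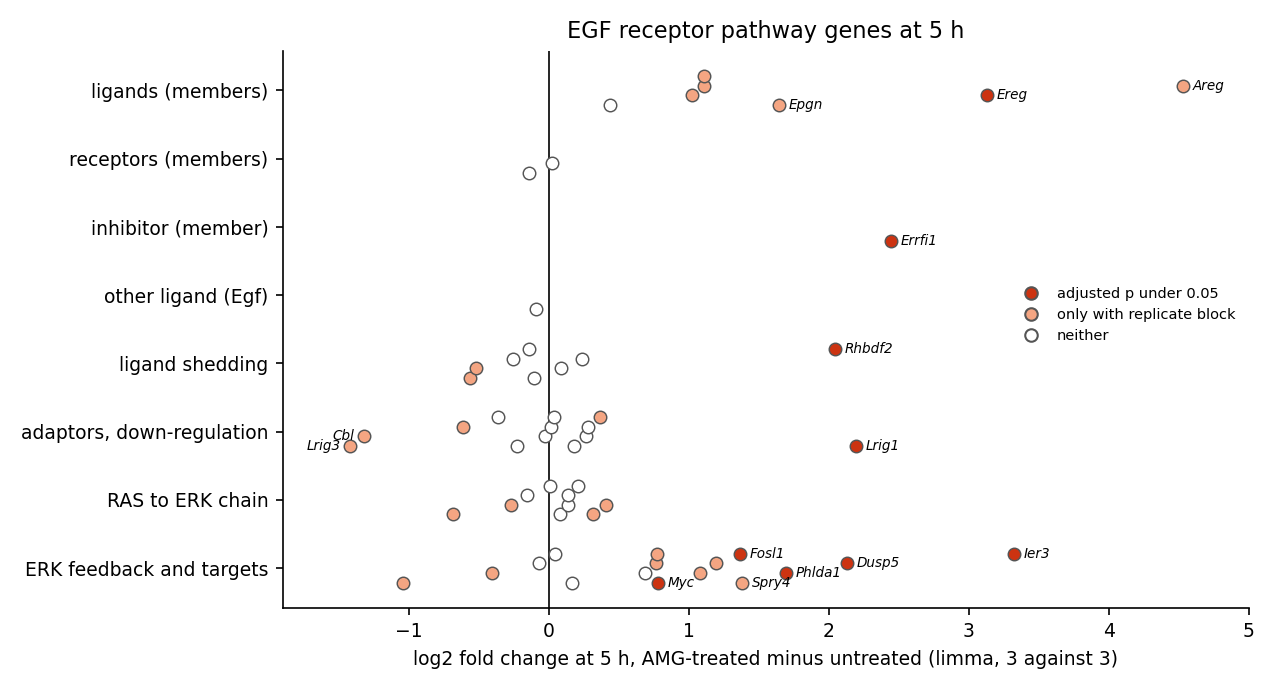
Log2 fold change at 5 h (AMG-treated minus Untreated, limma, 3 against 3) of each tested gene of the EGF receptor system by its place in the pathway, with filled points for genes that passed, pale points for those that passed with the replicate block only and open points for the rest. The receptors lie near 0, and the ERK feedback and target list holds 5 genes that rose.

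Over the 14 libraries, the genes whose log2 levels (centred within each table) were most like Areg were Plau (Pearson r 0.96), which encodes urokinase, Abhd17c (0.96), Dusp5 (0.94), Mapkapk2 (0.94) and Ets1 (0.94), among 12844 genes compared. For Egfr they were Usp7 (0.96), Plekha5 (0.93), Hipk1 (0.93), Ubr4 (0.93) and Ddi2 (0.92). The libraries share tables, times and treatment, so these values are descriptions without a test. Among members, Areg was most like Errfi1 (0.90) and Ereg (0.90), and Areg and Egfr were at 0.30.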

How the data were processed

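RNA from mouse tail fibroblasts was sequenced. Stranded mRNA libraries are described in the methods of a later paper that reused the 5 h comparison, and were taken to hold here. According to that paper's methods and the submitters' processing notes, reads were checked with FastQC (0.11.5), aligned with TopHat2 (2.0.13) to mm10 and filtered with SAMtools (0.1.19.24). The reads were counted per gene with HTSeq (0.5.3p3) and divided by DESeq size factors, separately for replicate 1 and for replicates 2 to 4. The strand setting and annotation release are not given in the sources used here. The deposited values are thus a normalised signal (read counts divided by size factors), not raw counts. Whole reads could be recovered from the steps between values (100% of values within 0.1 of a whole read), and edgeR on these reads called 135 genes.

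Genes with a mean of at least 10 normalised counts were compared at 5 h (replicates 2 to 4) with limma (3.58.1, R 4.3.3, trend) on log2(value + 1), a scale that understates changes of low genes, with Benjamini-Hochberg adjustment over all genes. Alternatives used edgeR (4.0.16), DESeq2 (1.42.0), a replicate block, other pseudocounts, filters and scalings, a gene length correction and leaving out each library. Deviations from the group means correlated at 0.65, 0.76 and 0.70 between libraries of the same number and at -0.59 to 0.12 between different numbers, so the block is printed where it changes a call. The labels call the replicates biological without saying whether cultures came from separate mice, so p-values measure the spread between these samples. Replicate 1 ratios carry 95% exact binomial intervals on recovered reads, which cover counting error only. Lengths and positions are from GENCODE M21 (GRCm38) and promoters from RefSeq (GRCm38.p6). The fit was tested on simulated data. Members and pathway lists were chosen with earlier results of these data known. The genes named are all members, the pathway genes that passed (or, in a list where none did, the 2 with the largest change), and the 5 genes most correlated with Areg, the ligand with the largest change, and with Egfr. Adam9, Adam10, Adam17, Grb2, Lrig3, Cbl, Gab1, Spry1 and Etv5 were named outside this rule, after their values were seen.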

Additional observations from a re-analysis of the deposited data

Results flagged for a closer look

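Nrg1 was lower with AMG in the single pairs at 1 h (log2 ratio -0.95) and 24 h (log2 ratio -1.01) of replicate 1, and higher in all 4 pairs at 5 h (0.84 to 3.15). The difference between times was not tested, because 1 and 24 h have 1 pair each. Among the 4 pairs at 5 h, replicate 1 lay far from the others for Egfr, at a log2 ratio of 1.91 against -0.18 to 0.16. The gap to the nearest pair, divided by the range of the 4 pairs, narrowly exceeded Dixon's 95% critical value for 4 samples (0.829). Chance passes this value in about 1 in 20 groups, and 10 members were searched.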

How the results depend on the processing

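The counts at 5 h depended on the fit over 19 alternatives. The 162 genes, 2 members and 7 pathway genes called became 4872, 7 and 24 with the replicate block, 4852, 7 and 24 with edgeR and the block, 4266, 8 and 27 with the length correction and the block, 1434, 4 and 14 with DESeq2, 515, 6 and 11 with all 4 replicates and the block, and 80, 1 and 2 without the limma trend. The eighth member called with the length correction and the block was Egfr. Leaving out 1 library gave 1 to 2199 genes, 0 to 5 members and 0 to 15 pathway genes (limma). At an unadjusted limma p under 0.05 the numbers were 1779 to 4716, 3 to 6 and 13 to 23. The 1 gene was left without AMG-treated replicate 2 and the 2199 without AMG-treated replicate 3, and the cause was not tested. Fewer samples enter each of these fits. The direction turned in 4 of 187 member values, all close to 0: Tgfa at -0.063 and Egfr at -0.074 without Untreated replicate 3 (ranges over libraries left out -0.063 to 0.80 and -0.074 to 0.11), Egfr at -0.020 without AMG-treated replicate 4, and Erbb2 at 0.014 with all 4 replicates and the block. In replicate 1, the numbers of members past 2-fold kept within 1.5 times under all 6 alternatives. Ratios near 0 changed sign for Tgfa at 5 h (0.059, and -0.022 with upper quartile rescaling and -0.19 with the length correction) and Hbegf at 24 h (0.012, and -0.0037 with upper quartile rescaling). Tgfa, Epgn and Areg rest on the fewest reads, which limits them to large changes.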
